A study of Mus musculus with 30 samples.

Results

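The transcripts of young lean adipose-derived stem cells were described from 8 libraries, chosen as the columns of the RNA-Seq count table that belong to the group labelled young and lean, out of 30 libraries in the series. Each library came from the cells of 1 mouse and is named here as in its description (YL1, YL7, YL23, YL24, YL25, YL26, YL27 and YL512). The donors were male C57BL6/J mice of the diet-induced obesity colony of the Jackson Laboratory, housed 4 to 5 per cage, fed the control chow and killed at 20 weeks of age. The labels name no transgene or engineered allele. Cells were isolated from inguinal fat by their surface proteins (Sca-1+, CD34+, CD31-, CD45- and Ter119-), grown to passage 2, frozen by individual mouse and then lysed for RNA and DNA together. The levels below are therefore those of cells after expansion in culture, not of cells fresh from the fat pad. The other groups of the series, which differ in age and diet, were not compared.

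Adipose-derived stem cells are the fibroblast-like progenitors of the fat pad. They lie around vessels and in the connective tissue of the pad, secrete collagen-rich matrix, and can be driven in culture toward fat, bone or cartilage. Sca-1, the product of Ly6a, and CD34 mark these progenitors in mouse fat, while the PDGF receptor alpha marks stromal cells more widely. CD31 marks endothelium, CD45 blood leukocytes and Ter119 red cells, so these served to remove other cells of the pad. Growth on plastic is known to bring proliferation, stress fibres and matrix synthesis.

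The 8 libraries held 30597765 (YL26) to 39261094 (YL23) counts in genes. Expression levels are in CPM, that is, each count over its library total after TMM scaling, and are written as mean ± SD over the 8 libraries unless stated otherwise. Of 38561 genes in the table, 11434 reached 1 CPM in all 8 libraries and are called detected, and 11048 of these were protein coding. A further 1482 genes reached that level in some libraries, 25645 stayed below it in all, and 15277 had no count. Spread was measured in edgeR on the 12767 genes with enough counts. The biological coefficient of variation estimates the relative spread between libraries once counting error is taken out, and had a median of 0.203. Each mouse gave 1 library, so differences between mice and between preparations of cells or RNA cannot be told apart. In edgeR the value of each gene is drawn toward that of genes of its level. Very even genes therefore get a coefficient above their own spread. A gene was called variable when it spread more widely than other genes of its level (edgeR goodness of fit against the trended dispersion, Benjamini-Hochberg adjusted p below 0.05). This held for 740 genes, 5.8% of those tested. DESeq2 marked 75 genes as dispersion outliers, all of them among the 740. Spread beyond counting error alone was called for 12101 genes, or 94.8%.

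Some libraries stood apart. The first principal component held 49.1% of the variance of log2 CPM and ran from YL512 (-44.4) and YL1 (-36.6) to YL26 (51.6), with the other 5 between -9.3 and 14.6. Correlations of log2 CPM across genes were lowest between libraries YL26 and YL512 (r = 0.93) and highest between YL24 and YL25 and between YL23 and YL24 (r = 0.994 for both). No pair agreed within sampling noise, since the chi-square statistic per gene was at least 22.6. YL26 favoured short genes (log2 CPM changed by -0.195 per doubling of exon length against the mean of the 8 libraries) and YL512 long genes (0.149). Malat1, a nuclear RNA, lay between 283.9 and 518.1 CPM in libraries YL1, YL7, YL27 and YL512 and between 1444 and 2846 CPM in the other 4. Of the 740 variable genes, 301 were highest in YL512 (40.7%, against 23.3% of all tested genes) and 247 lowest in YL26 (33.4%, against 29.6%). Without both libraries 568 genes were variable, 425 of them among the 740, and the median coefficient was 0.162. The part of depth, length preference or RNA state in these differences was not tested, and no batch is named in the labels. The mouse numbers do fall into a consecutive run, YL23 to YL27, and 3 others, YL1, YL7 and YL512, and the table column of YL512 alone carries a suffix. What the numbers and the suffix mark is not stated. Within YL23 to YL27, 303 genes were variable, 239 of them among the 740, and the median coefficient was 0.171.

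Ly6a (ENSMUSG00000075602), which encodes the sorted antigen Sca-1, was abundant in all 8 libraries. Its level ran from 728 CPM in YL25 through a median of 834 to 1279 CPM in YL7, with a mean of 949 ± 212. Ly6a was not called variable (edgeR adjusted p = 1). Cd34 (ENSMUSG00000016494), which encodes the other sorted antigen, was far lower and far less even. Its levels were 4.9 CPM in YL1, 5.22 in YL23, 5.5 in YL24 and 7.44 in YL25. They were 12 CPM in YL27, 13.5 in YL26, 21.5 in YL7 and 23.2 in YL512. The mean of Cd34 was 11.7 ± 7.33 CPM, and its spread was called variable (edgeR adjusted p = 4.47e-05) with all libraries and without each single library, but not within YL23 to YL27 (0.0806). The highest library thus had 4.74-fold the Cd34 level of the lowest, although all cells had been sorted for CD34. Per length of exon, mean Ly6a was 2319 and mean Cd34 4.82 counts per kilobase, scaled to the sum that TPM uses.

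Pdgfra (ENSMUSG00000029231), which encodes the stromal receptor for PDGF-A, was present throughout, from 175 CPM in YL26 through a median of 211 to 510 CPM in YL512. Its mean was 259 ± 115 CPM and it was called variable (edgeR adjusted p = 0.0174). That call ended without YL23 (adjusted p = 0.0562) and without YL512 (0.84), and within YL23 to YL27 (1). Of the 3 markers, 2 were variable, against 5.8% of all tested genes, and 0 were DESeq2 dispersion outliers. Ly6a and Pdgfra were thus well above the detection level in all 8 libraries, while Cd34 stayed under 10 CPM in 4 of them.

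Over the 8 libraries, 9 correlations between the 3 markers, the proliferation gene Mki67 and the contractile gene Acta2 were computed on log2 CPM. Of these, 1 pair passed: Cd34 and Acta2 had r = -0.86 (two-sided exact permutation p = 0.00456, adjusted over 9 pairs 0.0411). Its rank correlation did not pass (rho = -0.71, exact permutation p = 0.0576, adjusted 0.513). Without libraries YL512 and YL7, the pair with the most extreme Cd34, r was -0.56 (exact permutation p = 0.224). Fewer libraries also make a pair harder to call, so how far the relation rests on these 2 cannot be told. Leaving out single libraries gave r between -0.94 and -0.80, and the adjusted p stayed below 0.05 only when YL1 was left out. Without YL512 and YL7, Cd34 and Mki67 had r = -0.93 (unadjusted exact permutation p = 0.00278), against -0.42 with all 8. Without YL1 and YL512, Pdgfra and Acta2 had r = -0.84 (unadjusted exact permutation p = 0.0403), against -0.71. No other pair fell below 0.05 when its 2 most extreme libraries were left out. Cd34 and Ly6a, both sorted for, had r = 0.29 (exact permutation p = 0.473) and rho = 0.07 (p = 0.882), and r = 0.20 without libraries YL512 and YL7. Ly6a therefore did not track Cd34 detectably across these 8 libraries.

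Of 17 stromal surface genes, 14 were detected and 1 was low throughout. Of 15 tested, 3 were variable (20%, against 5.8% of all tested genes) and 1 was a DESeq2 dispersion outlier. Itgb1, the integrin beta 1 chain, stood at 1302 ± 150 CPM, Thy1, the CD90 antigen, at 891 ± 123 and the tetraspanin Cd63 at 800 ± 117. Pdgfrb, the receptor for PDGF-B, stood at 488 ± 56.2 CPM. None of these 4 was variable. Nt5e, which encodes the CD73 antigen often used for human stromal cells, was low at 0.431 ± 0.394 CPM and passed 1 CPM only in YL512 (1.35). Ngfr, the low-affinity nerve growth factor receptor, was among the most variable genes of all. It lay at 0.612 CPM in YL1 and 0.798 in YL7, at 3.13 in YL23, between 10.4 and 16.7 in YL24, YL25, YL26 and YL27, and at 28.7 in YL512 (edgeR adjusted p = 3.4e-22). Libraries YL1 and YL7 were thus nearly without Ngfr transcripts.

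Of 16 genes that mark subsets of adipose progenitors, 11 were detected. Of 11 tested, 4 were variable (36.4%, against 5.8% of all tested genes) and 0 were DESeq2 dispersion outliers. F3, the tissue factor that marks a proposed regulatory subset, stood at 602 ± 225 CPM, lowest in YL7 (259.8) and highest in YL512 (922). Anxa3 stood at 366 ± 121 CPM and Ly6c1 at 337 ± 90.2. Pi16, a marker of interstitial progenitors, stood at 12.6 ± 5.87 CPM and did not pass (edgeR adjusted p = 0.0535). It was called variable within YL23 to YL27 (edgeR adjusted p = 0.0274). Dpp4, the other interstitial marker, was near the limit of detection, between 0.177 CPM in YL7 and 4.11 in YL512. In bulk samples, fewer cells of a type and less RNA per cell cannot be told apart.

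**Figure D1:**
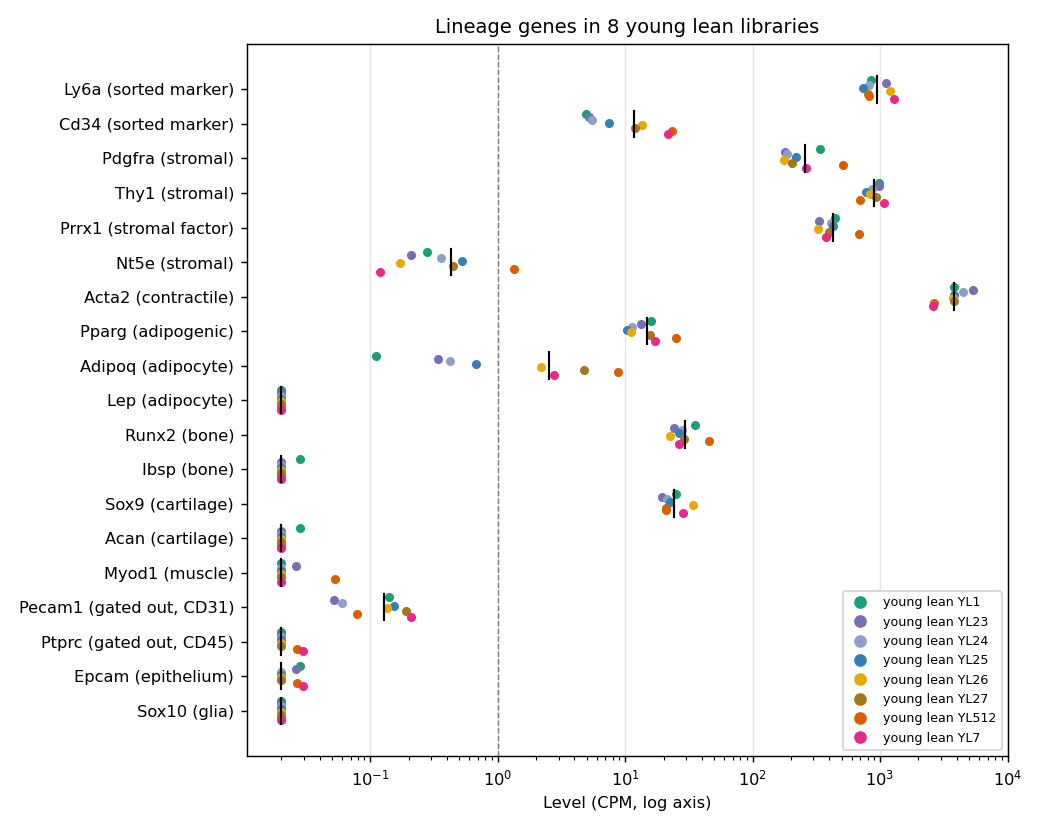
Level of 19 sorted, stromal and lineage genes in CPM (log axis), with 1 coloured point per young lean library and a black line at the mean. The dashed line marks the detection level of 1 CPM, and values below the start of the axis, zeros included, are drawn at its left end. Ly6a lies between 728 and 1279 CPM, Cd34 spreads from 4.9 to 23.2, and markers of the gated-out cells lie below 1.

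Adipogenic regulators were nearly all present. Of 18 genes, 17 were detected and 1 of 17 tested was variable, a share of 5.88%, against 5.8% of all tested genes. Klf4, a zinc finger factor that acts early in adipogenesis, stood at 134 ± 44.4 CPM and Srebf1, a regulator of lipid synthesis, at 129 ± 17.4. Ebf1, an early B cell factor of the adipocyte lineage, stood at 80.1 ± 17.9 CPM and Cebpd at 62.5 ± 20.4. Cebpd was not called with all 8 libraries but was within YL23 to YL27 (edgeR adjusted p = 0.00593). Pparg, the master regulator of fat cell fate, was detected in every library, from 10.4 CPM in YL25 through a median of 14.4 to 24.9 in YL512. Cebpa, its partner in terminal differentiation, ran from 21.2 in YL1 through 30.5 to 63.6 CPM in YL512 and was the variable member (edgeR adjusted p = 0.0218), a call that ended without YL1 (0.0765), YL7 (0.0833) or YL512 (0.104). The coactivator Ppargc1a was low in all 8 libraries.

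Genes of the mature fat cell were mostly low. Of 16, 5 were detected in all libraries, 5 were low in all and 6 passed 1 CPM in some. Lpl, lipoprotein lipase, was the abundant exception. It stood at 119.7 CPM in YL1, 252 in YL23, 337 in YL24, 371 in YL7, 418 in YL25, 579 in YL27, 698 in YL26 and 1134 in YL512. That is a 9.47-fold range, and Lpl was called variable (edgeR adjusted p = 2.38e-09) with each library left out. Fabp4, the fatty acid binding protein of fat cells, ran from 25.9 CPM in YL23 through 42.8 to 87.6 in YL512 and was also variable (edgeR adjusted p = 0.000103). Adipoq, which encodes adiponectin, lay below 1 CPM in libraries YL1, YL23, YL24 and YL25, at 2.2 in YL26, 2.75 in YL7, 4.76 in YL27 and 8.81 in YL512. Plin1, which coats the lipid droplet, lay at 7.94 CPM in YL512, at 2.48 in YL7, at 2.24 in YL27 and below 1 in the other 5. Lep, which encodes leptin, had 0 counts in all 8 libraries, which allows at most 0.0764 to 0.098 CPM depending on the library (3 counts, for counting error only). The summed level of the 16 genes ran from 188 CPM in YL1 to 1288 in YL512, and Lpl made up most of it. Whether a few differentiated cells or low transcription in many gave these reads was not tested.

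Genes of the bone lineage were detected in part. Of 12, 4 were detected (Runx2, Alpl, Sp7 and Spp1), 7 were low and 1 passed 1 CPM in some libraries. Dlx5 and Msx2, also in the list, did not reach 1 CPM in all 8 libraries. Runx2, the first regulator of the osteoblast, was even at 29.5 ± 7.39 CPM, and Alpl, tissue-nonspecific alkaline phosphatase, stood at 32.5 ± 10.6. Alpl was not called with all 8 libraries but was within YL23 to YL27 (edgeR adjusted p = 0.0144). Sp7, which acts after Runx2, stood at 6.7 ± 2.18 CPM. Spp1, which encodes the secreted phosphoprotein osteopontin and is also made outside bone, was the variable member (edgeR adjusted p = 2.38e-10). It stood at 734 CPM in YL512 against 111 (YL25) to 284 CPM (YL1) in the others, and the call was lost without YL512 (adjusted p = 0.0901). The mature products Bglap, Bglap2, Ibsp, Dmp1, Phex and Sost were low in all libraries.

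Of 13 cartilage genes, 5 were detected. Of 7 tested, 2 were variable (28.6%, against 5.8% of all tested genes) and 1 was a DESeq2 dispersion outlier. Sox9, which directs chondrocyte fate, stood at 24.2 ± 4.93 CPM, and Col11a1 at 52.7 ± 18.1. Col11a1 was not called with all 8 libraries but was within YL23 to YL27 (edgeR adjusted p = 0.0318). Col2a1, the main cartilage collagen, fell into high and low libraries. It stood at 84.2 to 99 CPM in libraries YL1, YL7, YL23 and YL27, at 40.2 in YL24, and at 12.8 to 24.4 in YL25, YL26 and YL512 (edgeR adjusted p = 4.16e-15). Comp, a matrix protein of cartilage and tendon, ran from 9.22 CPM in YL24 through 24.1 to 73.3 in YL7 (edgeR adjusted p = 4.64e-09). Acan, the cartilage proteoglycan, had 1 count in YL1 and none in the others. Sox6 also had at most 1 count per library. Of 6 tendon genes, 3 were detected. Fmod, the collagen-binding fibromodulin, lay at 72.1 CPM in YL512 and 187 in YL7, against 314 to 674 in the others (edgeR adjusted p = 2.7e-09). Fmod was not called within YL23 to YL27. Tnmd stood at 13.9 ± 5.53 CPM, while the tendon factors Scx and Mkx averaged under 1 CPM.

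Contractile genes were abundant and skeletal muscle regulators were not. Of 13 skeletal muscle genes, 4 were detected and 9 stayed at or under 3 counts in every library. Myf5 had 0 counts, and Myod1, Pax7 and Myog, further regulators of the muscle lineage, were at the floor. Acta1, the skeletal alpha actin, stood at 87.8 ± 34 CPM and the intermediate filament gene Des at 86.9 ± 52.8, from 11.4 CPM in YL7 to 149.7 in YL26. Of 14 mural genes, which mark smooth muscle and pericytes, 10 were detected. Acta2, smooth muscle alpha actin, stood at 3783 ± 906 CPM, lowest in YL7 (2618) and highest in YL23 (5395). Tagln stood at 2443 ± 746 CPM, Actg2 at 314 ± 121 and Cnn1, calponin, at 296 ± 115. YL512 was lowest for the last 3, at 1302, 106 and 142 CPM. Of 12 mural genes tested, 7 were variable (58.3%, against 5.8% of all tested genes) and 1 was a DESeq2 dispersion outlier. Without YL512 only 3 were called (Cspg4, Des and Myh11). Within YL23 to YL27 the 1 member called was Rgs5 (edgeR adjusted p = 0.00832), which was not among the 7. The pericyte genes Rgs5 and Kcnj8 were low, Rgs5 at 1.17 ± 0.78 CPM and Kcnj8 under 1, as was the smooth muscle regulator Myocd. The summed mural level ran from 4398 CPM in YL512 to 9902 in YL23.

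Markers of the cells removed by the sort were at or near 0. Pecam1, which encodes CD31, averaged 0.127 ± 0.0584 CPM, with at most 7 counts in a library. Ptprc, which encodes CD45, averaged 0.00699 CPM with at most 1 count. Of 15 endothelial genes, 3 were detected (Tek, Flt1 and Egfl7, at 7.78, 5.54 and 3.89 CPM), and Cdh5, the endothelial cadherin, averaged 0.467. Of 23 immune genes, 3 were detected: Csf1r, the receptor for colony stimulating factor 1, at 17.2 ± 8.58 CPM, Cd68 at 3.4 and Cd14 at 2.13. Csf1r was variable (edgeR adjusted p = 0.00482), highest in YL1 (31.3) and lowest in YL26 (9.56), a call that ended without YL1 (adjusted p = 0.098). Adgre1, the F4/80 antigen of macrophages, had 0 counts and Itgam, another leukocyte gene, averaged under 1 CPM. The 10 erythroid genes were all below 1 CPM, with summed levels between 0.415 and 0.83 CPM.

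Epithelial, mesothelial, neural and pluripotency genes were also mostly absent. In each list 1 gene was detected, except for the neural list, where 3 of 11 were. Among 11 epithelial and 7 mesothelial genes, Krt19 was the only one detected in all libraries, at 173 ± 42.1 CPM, while Epcam, Krt5 and Msln averaged under 0.1. Among 11 neural genes Tubb3, a tubulin, stood at 176 ± 63.2 CPM, Nes, nestin, at 30.8 ± 11.2 and S100b at 5.28 ± 2.48, while the glial factor Sox10 had 0 counts. Among 9 pluripotency genes, only Klf4 was detected. Pou5f1 and Sox2 had 0 counts, and Nanog averaged 0.258 CPM. As a check of the label, the Y-linked genes Eif2s3y, Ddx3y, Kdm5d and Uty were detected in all 8 libraries and Xist averaged 0.0842 CPM, which fits male mice.

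Levels between genes were compared per length, as counts per kilobase of exon scaled to the sum that TPM uses. On this scale the 25 highest genes included 6 of the mitochondrial genome and 6 ribosomal protein genes, beside collagens, matrix proteins and actins. Rplp1, a ribosomal stalk protein, stood at 16898 ± 2989, mt-Co1, a subunit of cytochrome oxidase, at 16400 ± 5751 and Col1a1, the alpha 1 chain of type I collagen, at 12539 ± 2147. Eef1a1, which brings transfer RNA to the ribosome, stood at 12113 ± 1718 and Lgals1, galectin 1, at 10450 ± 1017. Sparc, a collagen-binding matrix protein, stood at 9060 ± 1074 and Serpinh1, the collagen chaperone, at 5941 ± 1148. Acta2 stood at 5080 ± 1080, Actb at 4618 ± 461, and the calcium-binding S100a4 and S100a6 at 5276 ± 3296 and 4350 ± 850. S100a4 was the least even of these, from 472 CPM in YL25 to 2396 CPM in YL7. Gm23935, at 54051 ± 31466, and Gm10736, at 13653 ± 3777, are a very short gene and a pseudogene, so their values per length are uncertain. The 25 genes took 12.6 ± 1% of all counts in genes.

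**Figure D2:**
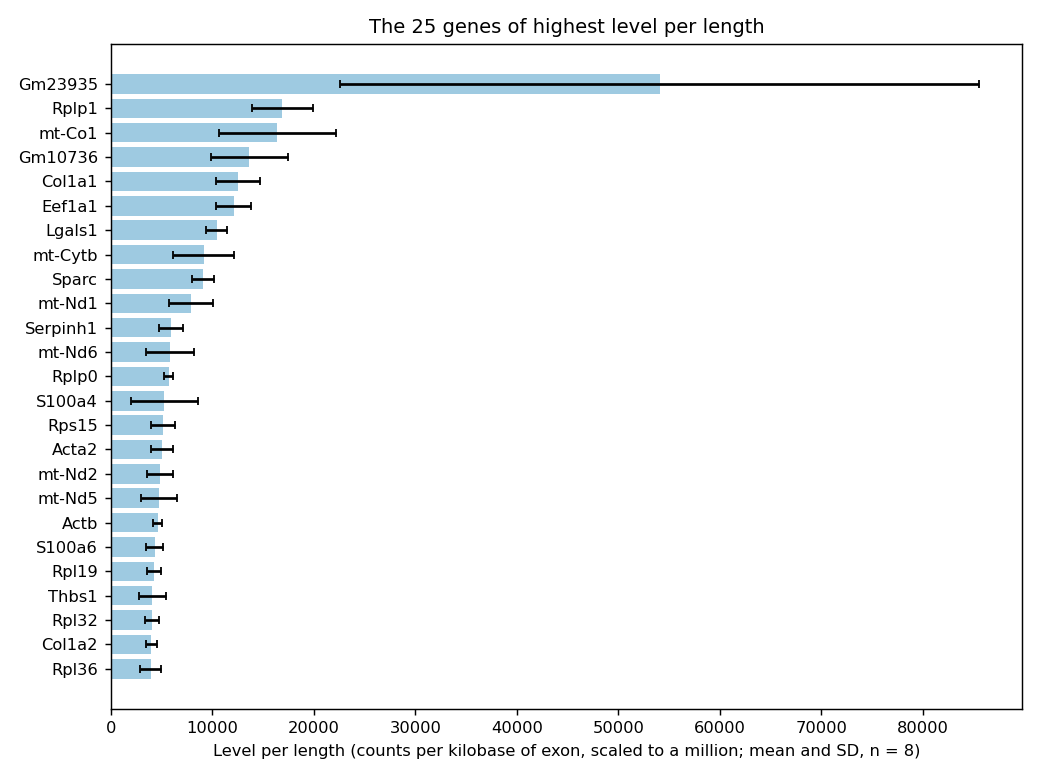
The 25 genes with the highest mean level per length (counts per kilobase of exon, scaled to the same sum in each library) in 8 young lean libraries. Bars give the mean and whiskers the SD. Apart from Gm23935 at 54051, a very short gene, the means run from 3941 for Rpl36 to 16898 for Rplp1.

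Counted as reads rather than per length, Col1a1 (ENSMUSG00000001506) took 2.78 ± 0.51% of all counts, from 1.88% in YL512 to 3.32% in YL25. Its level was 27938 ± 5612 CPM, followed in reads by Col1a2 (16823 ± 2454), Sparc (11541 ± 1078), Eef1a1 (10123 ± 778) and Col3a1 (9128 ± 1506). The 10 genes with the most reads took 11.5 ± 0.99% of counts, the first 100 took 31.3 ± 1.7% and the first 1000 took 64.4 ± 1.6%. Of those 10, 8 encode secreted matrix proteins or their chains: Col1a1, Col1a2, Sparc, Col3a1, Fn1, Thbs1 (thrombospondin 1), Fbln2 and Bgn (biglycan). The genes with the most reads were thus those of fibrillar matrix, next to Eef1a1 and mt-Co1.

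Of 44 collagen genes, 28 were detected and 14 were low in all libraries, and together the family took 7.28 ± 1% of counts. After the chains of types I and III, Col5a2 stood at 4320 ± 908 CPM and Col5a1 at 4073 ± 695, both parts of type V collagen, which nucleates fibrils. The basement membrane chain Col4a1 stood at 1689 ± 338 CPM and the microfibril chain Col6a1 at 1643 ± 519. None of Col1a1, Col1a2, Col3a1 and Col5a2 was variable, with coefficients between 0.179 and 0.221. DESeq2 marked 2 of 30 tested collagens as dispersion outliers, and edgeR called 7 variable (23.3%, against 5.8% of all tested genes). These 7 variable collagens had fewer reads. Among them Col8a2, a short-chain collagen, ran from 0.556 CPM in YL1 to 11.9 in YL27 (edgeR adjusted p = 2.41e-10) and Col11a2 from 1.58 in YL512 to 17.2 in YL26 (edgeR adjusted p = 1.46e-05). The skin anchoring chain Col17a1 and the kidney chains Col4a3 and Col4a4 were low.

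Other matrix glycoproteins and proteoglycans were nearly all present, 38 of 41 detected, and took 6.25 ± 0.67% of counts. Sparc, Fn1, fibronectin, and Fbln2, fibulin 2, were even, with coefficients of 0.15, 0.187 and 0.155. Nevertheless 15 of 39 tested genes were variable (38.5%, against 5.8% of all tested genes), and 4 were DESeq2 dispersion outliers. Of the 15, 10 were called without each single library, but 4 members were called within YL23 to YL27. Postn, periostin, a matrix protein of remodelling tissue, fell into a high and a low set of libraries. It lay between 2811 and 3986 CPM in libraries YL23 to YL27 and between 1133 and 1492 CPM in libraries YL1, YL7 and YL512 (edgeR adjusted p = 0.000597). Dcn, decorin, a proteoglycan known to be plentiful in fresh fat stroma, averaged only 22.8 ± 15.4 CPM, with 4.79 in YL1, 5.38 in YL7, 8.75 in YL23, 20.6 in YL24, 27.9 in YL27, 33.9 in YL25, 35.8 in YL26 and 45.3 in YL512. Lum, lumican, its relative, averaged 0.652 ± 0.561 CPM. Ogn, osteoglycin, followed with 23.1 CPM in YL1 and 42.5 in YL7 against 74.7 to 212 in the others. Tnxb, tenascin X, was highest in libraries YL512 (56.2) and YL7 (39.3) against 5.41 to 15.1 CPM in the others (edgeR adjusted p = 7e-16). Tnxb was not called within YL23 to YL27 (edgeR adjusted p = 0.0774).

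Enzymes and inhibitors of the matrix were detected for 32 of 39 genes. Of 33 tested, 6 were variable (18.2%, against 5.8% of all tested genes) and 2 were DESeq2 dispersion outliers. Lox, lysyl oxidase, which cross-links collagen, was even at 5766 ± 537 CPM. Pcolce, which aids collagen trimming, stood at 1405 ± 212 CPM and the gelatinase Mmp2 at 539 ± 47.4. Timp3, a matrix-bound inhibitor of metalloproteinases, was variable, at 1766 CPM in YL1 against 203 (YL26) to 799 (YL24) in the others (edgeR adjusted p = 3.53e-09). Mmp3, stromelysin 1, stood at 15.1 CPM in YL512 and averaged 3.48 ± 4.81. Mmp8, Mmp9, Mmp10, Mmp12 and Mmp13 were low.

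Of 49 growth factors and related matricellular genes, 38 were detected. Csf1, the growth factor of macrophages, stood at 1511 ± 225 CPM. Ccn1 stood at 1412 ± 306 CPM and Ccn2, connective tissue growth factor, at 1088 ± 335, and Vegfa, which drives vessel growth, at 635 ± 127. None of these 4 was variable, yet 18 of 42 tested members were (42.9%, against 5.8% of all tested genes), and 3 were DESeq2 dispersion outliers. Of the 18, 8 were called without each single library, but 5 members were called within YL23 to YL27. Ccn3 was the least even, at 8.01 CPM in YL1, 12.9 in YL7, 15.9 in YL512 and 26.4 in YL23, against 69.5 to 122 in the others (edgeR adjusted p = 9.66e-30). Gdf10, a member of the TGF beta family, likewise ran from 1.6 CPM in YL7 and 2.73 in YL1 to 27.3 in YL512. Grem1, a BMP antagonist, was highest in YL1 (63.5) and lowest in YL26 (9.73). Among low members, Fgf1, Fgf10, Fgf21, Bmp2, Bmp4, Bmp7 and Areg averaged under 1 CPM. Without YL23 or without YL512 the count of variable members was 13, the lowest of the sets of 7 libraries.

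The binding proteins of insulin-like growth factors were detected for 6 of 7 genes. Igfbp7 stood at 1096 ± 206 CPM, Igfbp4 at 747 ± 293 and Igfbp6 at 380 ± 115, none of them variable. Igfbp2, Igfbp3 and Igfbp5 were variable with all libraries and without each (50% of 6 tested, against 5.8% of all tested genes). Within YL23 to YL27 Igfbp5 kept the call (edgeR adjusted p = 0.00632), while Igfbp2 (0.524) and Igfbp3 (0.352) did not. Igfbp2 stood at 14.6 CPM in YL512 and 28.3 in YL7 against 145 in YL26, and Igfbp5 at 143 CPM in YL512 against 19.4 to 51.8 in the others. Igfbp1, a liver product, had 0 counts. The secreted antagonist Sfrp1 led the Wnt ligands and modulators, 14 of 24 detected, at 1113 ± 222 CPM. Dkk2, another antagonist, stood at 12.6 CPM in YL1 and 17.2 in YL7 against 49.9 to 106 in the others (edgeR adjusted p = 2.96e-14). Dkk2 was not called within YL23 to YL27 (edgeR adjusted p = 0.303). The ligand Wnt5a stood at 27.5 ± 8.43 CPM, and Dkk1, Wif1, Rspo1 and Wnt6 averaged under 1.

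Of 30 cytokines and chemokines, 12 were detected in all libraries. Mif, macrophage migration inhibitory factor, stood at 838 ± 214 CPM and Cxcl12, which retains blood stem cells in their niche, at 292 ± 68.1, neither of them variable. Cxcl14 was variable, from 91.4 CPM in YL27 to 564 in YL1. Il6, a cytokine of inflamed stroma, stood at 71 CPM in YL512 against 7.09 (YL26) to 33.9 (YL1) in the others. Ccl2, which draws monocytes, stood at 129 CPM in YL512 against 22.4 to 44.4. Cxcl5 stood at 46.7 CPM in YL512, 27.4 in YL7 and 26.9 in YL1, against 4.49 to 8.45 in the others, and was not called within YL23 to YL27. Of 15 tested, 8 were variable (53.3%, against 5.8% of all tested genes) and 1 was a DESeq2 dispersion outlier. Of the 8, 6 were highest in YL512. Without that library 5 were called, Cxcl1, Cxcl5, Cxcl14 and Il6 among them. Il1b, Tnf, Ifng, Il4, Il10 and Il13 averaged under 1 CPM. Of 21 complement genes measured, 10 were detected, with Serping1, the C1 inhibitor, at 116 ± 40.2 CPM and C4b at 78.4 ± 32.9, while C1qa, C1qb and C1qc, made by macrophages, averaged under 0.1.

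Proliferation genes were present in every library. All 24 proliferation genes were detected and none was variable with all 8 libraries (edgeR; 4 at an unadjusted p below 0.05, and 0 as DESeq2 dispersion outliers), though 2 were without YL512. Top2a, a topoisomerase of dividing cells, stood at 111 ± 28.5 CPM. Mki67 ran from 48.4 CPM in YL26 through 91.6 to 153 in YL1, and its spread missed the threshold (edgeR adjusted p = 0.0579). The summed level of the 24 genes ran from 774 CPM in YL26 to 1541 in YL1. Genes of cell cycle arrest were expressed beside them, all 9 detected. Cdkn1a, the p53 target p21, stood at 246 ± 46.4 CPM, and Cdkn2a, which encodes p16 and p19, ran from 30 CPM in YL512 to 96.2 in YL7 (edgeR adjusted p = 0.0174), a call lost without YL512 (0.0525) or YL7 (0.276).

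Genes of position and identity were called variable about as often as other genes. The median coefficient was 0.233 for the patterning factors and 0.241 for the Hox genes, against 0.203 over all tested genes. Prrx1, a factor of limb and body wall mesenchyme, stood at 424 ± 111 CPM, Tbx15, known from subcutaneous fat, at 88.1 ± 15.1 and Twist1 at 64.7 ± 6.48. Of 22 patterning factors tested, 1 was variable (4.55%, against 5.8% of all tested genes), Meox2, at 2.82 CPM in YL24 and 19.4 in YL7. Tcf21, which marks visceral rather than subcutaneous stroma, averaged under 1 CPM. Of 38 Hox genes, 23 were detected and 1 of 27 tested was variable (3.7%), Hoxb5, a call lost without most single libraries. Hoxb9 stood at 66 ± 17.3 CPM, Hoxc10 at 47 ± 3.85, Hoxc6 at 29.6 ± 8.5 and Hoxc8 at 27.8 ± 3.41. The 2 most posterior genes of the A and B clusters, Hoxa13 and Hoxb13, and Hoxd9 to Hoxd13 averaged under 1 CPM. The summed level of the Hox genes ran from 275.4 CPM in YL512 to 415.7 in YL26.

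Among cytoskeletal and reference genes no member was called. Of 32 cytoskeletal genes none was variable (edgeR; 2 at an unadjusted p below 0.05, and 0 as DESeq2 dispersion outliers), with Vim, vimentin, at 4246 ± 688 CPM and Flna, filamin A, at 2144 ± 324, and a median coefficient of 0.177. Of 16 reference genes none was variable (edgeR; 1 at an unadjusted p below 0.05, and 0 as DESeq2 dispersion outliers), and the median coefficient was 0.157. Tbp alone stayed within counting error (edgeR adjusted p = 0.062). Eef1a1 had a coefficient of 0.142, Actb 0.159, Gapdh 0.175 and B2m 0.214, while Rpl13a, a ribosomal protein gene often used as a reference, had 0.311 and ran from 1362 CPM in YL512 to 4092 in YL26. Rpl13a was therefore the least even of the 16 in these libraries.

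The 12 most stable genes among 8424 that averaged 10 CPM or more and had a gene symbol had coefficients of 0.114 to 0.117. Such values exceed the genes' own spread: Pfkm had 0.114, though its SD was 0.576 CPM around a mean of 47.9 CPM. Pfkm, the muscle form of phosphofructokinase, lay between 47.1 CPM in YL1 and 48.8 in YL24, and Acp2, a lysosomal phosphatase, between 45.5 in YL27 and 46.8 in YL1. Cd99l2, a membrane protein, lay between 50.1 and 53 CPM and Snx2, a sorting nexin of endosomes, between 92.5 and 100.1. The spread of these 4 did not exceed counting error (edgeR adjusted p = 0.976, 0.988, 0.698 and 0.0737). All 12 were chosen for small coefficients in the same libraries, so this outcome was partly set by the choice. The others were Idh3b, Rab12, Yipf5, Tsnax, Ube2q1, Snap47, Arl8a and Cdc123, whose highest and lowest libraries differed by at most 1.13-fold. Of these, Rab12, Yipf5, Snap47 and Arl8a act in membrane traffic and Idh3b in the citric acid cycle. Over all 8424 genes, 78 stayed within counting error and 465 were variable.

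**Figure D3:**
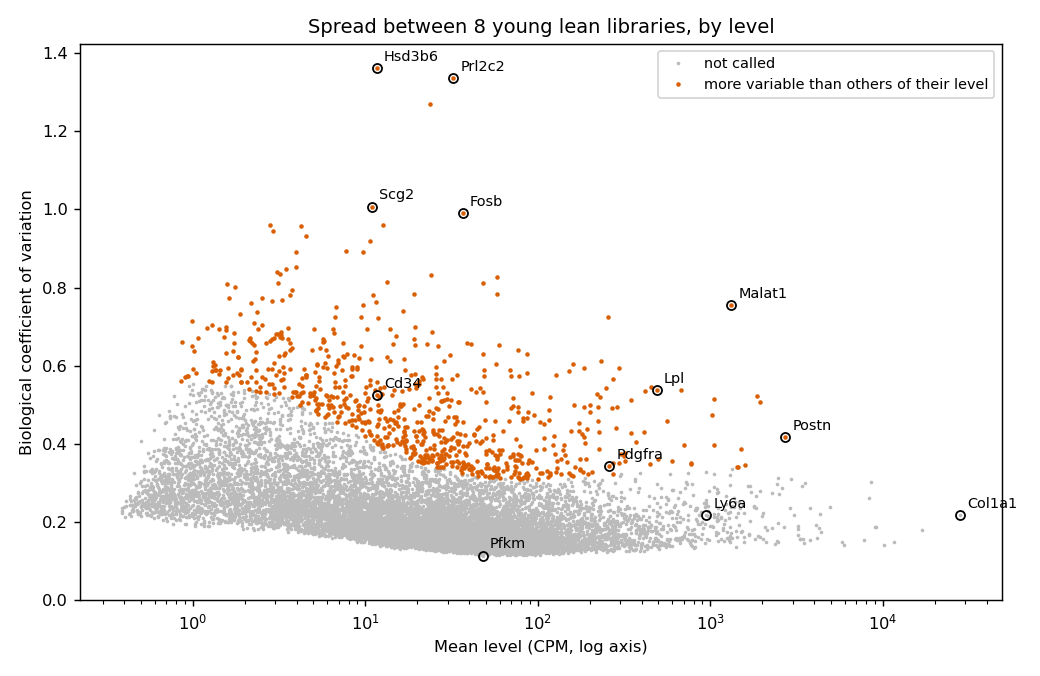
Biological coefficient of variation of each of the 12767 tested genes against its mean CPM (log axis) over 8 young lean libraries. Orange points are the 740 genes called more variable than others of their level, grey points the rest, and circled genes are named in the text. Col1a1 and Ly6a lie among the grey points, and Hsd3b6 and Prl2c2 lie highest.

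The 12 most variable genes of the same set were Hsd3b6, Prl2c2, Prl2c3, Scg2, Fosb, Gsta4, Ngfr, Prg4, Egr2, Dusp5, Aspn and Ccn3, with coefficients of 0.783 to 1.36. All 12 were called variable, which was partly set by choosing them for large coefficients in the same libraries. Dusp5, a phosphatase of the ERK pathway, was the only one whose call ended without a single library (adjusted p = 0.33 without YL512). Hsd3b6, a steroid dehydrogenase, stood at 70.8 CPM in YL512, 11.6 in YL7, 5.79 in YL1 and at most 1.73 in the other 5 (edgeR adjusted p = 4.93e-65). Prl2c2, which encodes the prolactin relative proliferin, stood at 86.2 CPM in YL7, 79.9 in YL512 and 79.5 in YL1, against 7.19 in YL27, 2.4 in YL23 and at most 1.08 in YL24, YL25 and YL26 (edgeR adjusted p = 1.75e-94). Prl2c3 was high and low in the same libraries, but the 2 genes are near-identical copies, so how reads divide between them is uncertain. Prg4, lubricin, was high in the same libraries, at 70.6 CPM in YL7, 60.1 in YL512 and 24 in YL1 against 5.44 to 13.1 in the others. Gsta4, a detoxifying transferase, was highest in YL7 (53.9) and YL1 (21).

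Other variable genes ran the opposite way. Scg2, secretogranin 2, a granule protein, stood at 0.306 CPM in YL1, 1.36 in YL7 and 2.27 in YL512 against 4.49 in YL23, 9.49 in YL24, 14.6 in YL25, 25.6 in YL26 and 28.8 in YL27 (edgeR adjusted p = 2.83e-28). Aspn, asporin, a small matrix proteoglycan, stood at 4.87 CPM in YL1 and 163 in YL27. Ccn3, given above, and Postn were low in libraries YL1, YL7 and YL512 as well. The same 3 libraries were thus at the high end for proliferin and lubricin and at the low end for secretogranin 2 and periostin, with no overlap with the other 5. They also held 3 of the 4 lowest Malat1 levels. These sets were noticed in the data, so no test is given for them, and they follow the split of the mouse numbers given above. Within YL23 to YL27 the spread of Prl2c2 and Scg2 was still called (edgeR adjusted p = 7.87e-07 and 1.19e-08), and that of Postn was not (1). Of the 12 most variable genes, Prg4 (edgeR adjusted p = 0.377), Hsd3b6 (0.0631) and Dusp5 (0.183) lost the call there, and the others kept it.

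**Figure D4:**
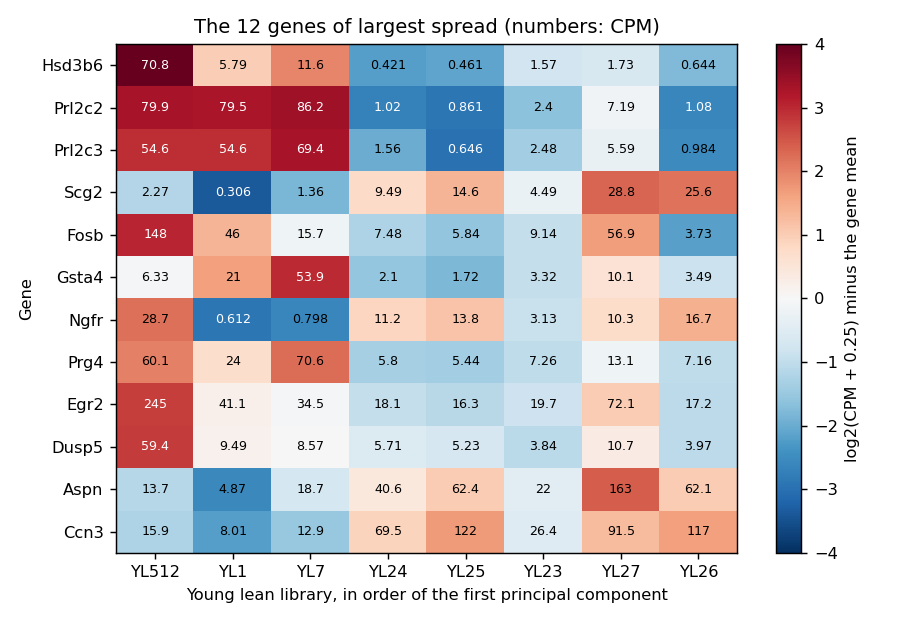
The 12 genes of largest coefficient of variation (rows) in 8 young lean libraries (columns, in order of the first principal component). Numbers are CPM and colours are log2(CPM + a small constant) minus the mean of the gene. Libraries YL512, YL1 and YL7 are high for Prl2c2 (79.9, 79.5 and 86.2) and low for Scg2 (2.27, 0.306 and 1.36).

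The immediate early genes, which respond within minutes to serum, stretch or handling, spread widely. Of 21, 19 were detected. DESeq2 marked 4 of the 20 tested as dispersion outliers, and edgeR called 12 variable (60%, against 5.8% of all tested genes). All 12 were highest in YL512, and 7 were lowest in YL26. Egr1, a zinc finger factor, stood at 183 CPM in YL26, 238 in YL25, 248 in YL23, 281 in YL24, 351 in YL7, 441 in YL1, 699 in YL27 and 1201 in YL512 (edgeR adjusted p = 9.8e-10). Fosb, a subunit of AP-1, stood at 3.73 CPM in YL26, 5.84 in YL25, 7.48 in YL24, 9.14 in YL23, 15.7 in YL7, 46 in YL1, 56.9 in YL27 and 148 in YL512 (edgeR adjusted p = 3.79e-49). Egr2, another zinc finger factor, stood at 245 CPM in YL512, 72.1 in YL27, 41.1 in YL1, 34.5 in YL7 and 16.3 to 19.7 in YL23 to YL26. The 3 genes put the libraries in a similar order, with YL512 and YL27 on top and YL23 to YL26 at the bottom. Fos ran from 85.9 CPM in YL26 through 176 to 532 in YL512, and the nuclear receptor Nr4a1 from 157 in YL23 through 254 to 876 in YL512. Junb and Dusp1 stood at 304 ± 139 and 273 ± 103 CPM. Within YL23 to YL27, 12 members were variable, but not the same 12, since Nr4a2 lost its call there (edgeR adjusted p = 0.258). Without YL512, 9 members were still variable: Btg2, Egr1, Egr2, Fos, Fosb, Ier2, Junb, Nr4a1 and Zfp36. The summed level of the 21 genes ran from 1526 CPM in YL25 to 5611 in YL512. YL512 also had the highest Il6 and Ccl2, and the part of culture or harvest in this was not tested.

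Since these genes were high together, the 250 bases before their RefSeq starts (GRCm38.p6) were searched on both strands for 4 motifs: the CArG box of serum response factor, TGACGTCA of CREB, TATAAA and the AP-1 motif TGANTCA, of which only the CArG box can hold another, TATAAA. Of the 12 variable immediate early genes 10 had a window. A CArG box lay before Egr2 and Zfp36, against 1.43% of 9764 tested genes with a window and 1.62% of all 27025. TGACGTCA lay before Btg2 and Dusp1, against 3.12% and 1.77%. TATAAA lay before Fos and Nr4a2, against 7.6% and 14.3%. TGANTCA lay before none of the 10. All 250 bases of the Zfp36 window lie in an annotated exon of Zfp36, and 47 bases of the Dusp1 window in one of Dusp1. The 3 windows printed show a match of each kind in capitals, read along the gene, and overlap no exon of the GENCODE annotation. The Egr2 window lies at chr10:67537619-67537868 on the + strand with the CArG box at -72, Btg2 at chr1:134079156-134079405 on the - strand with TGACGTCA at -166, and Fos at chr12:85473640-85473889 on the + strand with TATAAA at -33, counted from the start.
Egr2: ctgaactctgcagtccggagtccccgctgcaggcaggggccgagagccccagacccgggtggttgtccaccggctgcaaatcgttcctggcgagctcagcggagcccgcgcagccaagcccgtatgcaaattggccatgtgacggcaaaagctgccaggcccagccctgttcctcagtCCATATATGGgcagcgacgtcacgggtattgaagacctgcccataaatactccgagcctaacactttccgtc
Btg2: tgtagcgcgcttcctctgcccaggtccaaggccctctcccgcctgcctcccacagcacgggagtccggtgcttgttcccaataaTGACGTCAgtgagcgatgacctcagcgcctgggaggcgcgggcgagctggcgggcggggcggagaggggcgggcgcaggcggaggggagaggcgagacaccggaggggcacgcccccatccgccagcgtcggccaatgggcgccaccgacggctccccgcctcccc
Fos: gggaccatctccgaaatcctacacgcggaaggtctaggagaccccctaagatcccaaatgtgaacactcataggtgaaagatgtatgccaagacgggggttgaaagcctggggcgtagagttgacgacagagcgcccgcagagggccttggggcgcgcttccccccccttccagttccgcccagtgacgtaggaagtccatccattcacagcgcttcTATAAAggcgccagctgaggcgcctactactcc
A match is a run of letters, not a shown binding site. Over all 521 variable genes with a window, TATAAA was present for 14.2%, a CArG box for 2.3%, TGACGTCA for 3.84% and TGANTCA for 6.72%. The corresponding shares of the tested genes were 7.6%, 1.43%, 3.12% and 5.48%.

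Ribosomal protein genes were lowest in YL512 and highest in YL26. Of 82, 80 were detected, and together they took 8.57 ± 1.8% of counts, from 6.44% in YL512 to 12.3% in YL26. Rplp0 ran from 2423 CPM in YL512 to 4114 in YL26 and Rpl41 from 673 to 2875 in the same libraries. Of 80 tested, 3 were variable (3.75%, against 5.8% of all tested genes): Rps14, Rpl39l and Rpl41. The count was 0 without YL26 (edgeR; 3 at an unadjusted p below 0.05), and the cause was not tested. The median coefficient was 0.237, above the 0.203 of all tested genes. These genes are short, and libraries YL26 and YL512 also lay at the ends of the length preference given above, so the 2 cannot be told apart. Ribosomal protein genes have many processed pseudogenes, so single values are uncertain.

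The mitochondrial genome took 2.29 ± 0.75% of counts, from 1.46% in YL1 to 3.75% in YL7. mt-Co1 ran from 5648 CPM in YL1 through 7440 to 14566 in YL7, and mt-Cytb from 2314 through 3339 to 5986 in the same libraries. Of its 37 genes 10 were detected. mt-Co2, mt-Co3 and mt-Atp6, subunits of cytochrome oxidase and of ATP synthase, had at most 3, 4 and 2 counts in a library, although they lie on the same transcribed strand as mt-Co1. The cause of these near-zero values was not tested. Of 10 tested, mt-Nd6, mt-Rnr1 and mt-Rnr2 were variable (30%, against 5.8% of all tested genes). The call ended without YL26 for mt-Nd6 (edgeR adjusted p = 0.0531) and without YL1 for mt-Rnr1 and mt-Rnr2 (0.0563 and 0.66). Without both YL26 and YL512, 9 of the mitochondrial genes were variable.

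**Figure D5:**
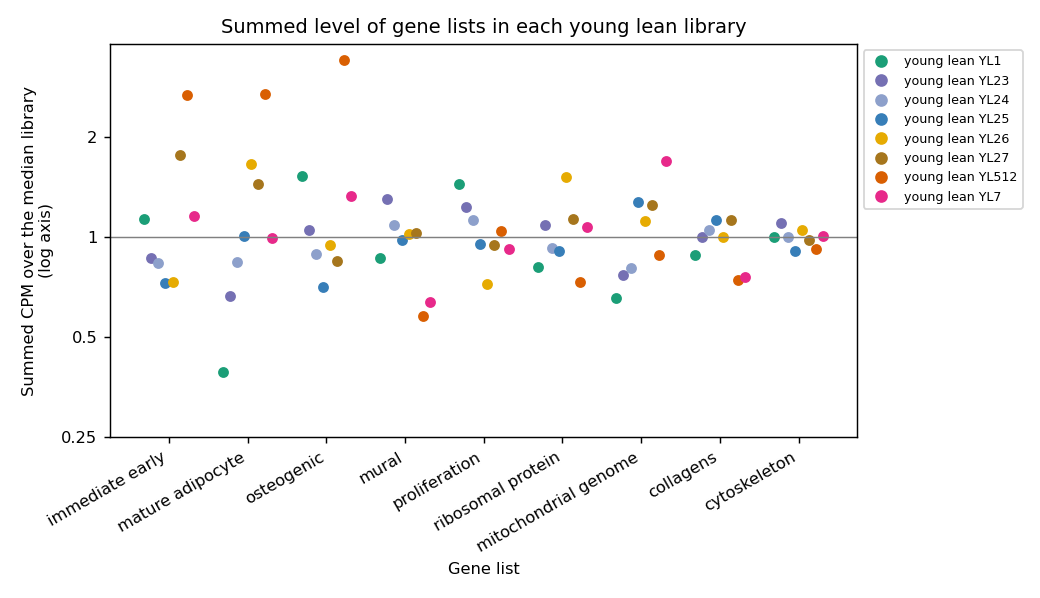
Summed CPM of 9 gene lists in each young lean library, divided by the median of the 8 libraries (log axis), with 1 point per library. YL512 lies highest for the immediate early, mature adipocyte and osteogenic lists, YL26 for ribosomal proteins and YL7 for the mitochondrial genome, while the cytoskeleton list spans 1.22-fold from lowest to highest.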

How the data were processed

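RNA of 8 young lean mice, 1 library each, was used, and the 22 columns of the other groups were left out. The deposited table holds raw counts of reads per Ensembl gene, whole numbers that the authors did not normalise. The submitters' processing notes list DESeq2 1.12.4, HTSeq 0.7.0 and STAR. The build, annotation release and strand setting are not given in the sources used here. Reads of overlapping, antisense or near-identical genes are uncertain. Symbols, biotypes and exon lengths came from GENCODE M21, by identifier, for 36639 of 38561 genes. The 5 lines that name no gene were left out; reads in no gene were 3.94% to 8.67% and ambiguous reads 2.83% to 3.41% of a library.

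CPM used TMM totals (edgeR 4.0.16, R 4.3.3). filterByExpr kept 12767 genes for the spread, fitted with an intercept only. Deviance chi-square tests were run against the trended dispersion and against counting error. Both were tried on simulated counts, where genes not made more variable lay exactly on the trended dispersion or on counting error. That trial therefore does not cover the scatter of real genes about the trend. Level per length used the GENCODE exon union, in place of a RefSeq length. A gene at or under 3 counts in every library is called at the floor. Correlations used log2 CPM (prior count 2) and all 40320 orders of the libraries. Alternatives were DESeq2 1.42.0 size factors and dispersions, plain totals, other filters and detection levels, and each library left out. Leaving out libraries YL26 and YL512 together, or YL1, YL7 and YL512, was chosen after seeing the data. Intervals, floors and tests of counting cover counting error only.

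The group and the 36 gene lists were chosen with earlier results of these data known. Genes named were the markers, the 25 of highest level per length, the 12 most and 12 least variable averaging 10 CPM or more, reference genes, and per list the 4 with the most reads, the first 3 where low and the 2 least even; further list members were named after their values were seen, and 2 genes are not reported here.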

Additional observations from a re-analysis of the deposited data

Results flagged for a closer look

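Of 174 named genes averaging 1 CPM or more, 24 had 1 library whose gap to its nearest neighbour took more than 52.6% of the whole range of the 8 libraries. Chance flags about 1 gene in 20, but many of the named genes were chosen for their spread, gaps were taken on CPM and not on a log scale, and genes of 1 library are not independent, so the count of 24 cannot be read against that rate. In all 24 genes the library apart was a high one, and in 15 of them it was YL512. YL512 stood apart for the immediate early and related genes Egr2 (245 CPM, the next library 72.1), Fosb (148), Btg2 (310), Zfp36 (434) and Dusp5 (59.4). It also stood apart for the secreted products Spp1 (734), Ccl2 (129), Il6 (71), Igfbp5 (143), Mmp3 (15.1) and Wnt5a (45.9). The remaining genes of YL512 were Pparg (24.9), the lipid droplet gene Plin1 (7.94), Prrx1 (677) and Hsd3b6 (70.8).

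YL7 stood apart for S100a4 (2396 CPM, the next library 1225), Igfbp4 (1366), Comp (73.3), Gsta4 (53.9) and S100b (10.9). YL27 stood apart for Aspn (163 CPM), Col11a1 (92) and Rgs5 (2.88), and YL1 for Timp3 (1766 CPM, the next library 798.7).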

How the results depend on the processing

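No paired analysis was possible because the 8 libraries form 1 group and no groups were compared. The count of variable genes, 740, was 488 among the 8623 genes averaging 10 CPM or more (fewer genes tested) and 75 as DESeq2 dispersion outliers, all 75 among the 740; the cause of the latter was not tested. It was 739 with DESeq2 size factors, 790 without a filter and 887 against the common dispersion, and ran from 612 (without YL512) to 679 when single libraries were left out, and was 303 within YL23 to YL27 (fewer samples); 278 of the 740 genes were called in each of the 8 sets that leave out 1 library. The 25 genes of highest level took 12.6% of counts per length, 17.5% when ranked by CPM (10 genes shared) and 15% without mitochondrial and ribosomal protein genes (13 shared), and 12.2% to 13.4% without single libraries. Detected genes ran from 9248 at 5 CPM to 12220 at 0.5 CPM and from 11444 to 11520 without single libraries. Without single libraries the median coefficient ran from 0.18 to 0.218, and 0 or 1 of the 9 marker correlations passed. Without single libraries 3 correlations turned sign, none past the threshold there: r ran from -0.02 (without YL512) to 0.71 for Cd34 with Pdgfra, from -0.02 (without YL7) to 0.53 for Cd34 with Ly6a and from -0.41 to 0.39 (without YL7) for Ly6a with Acta2. Of 71 named variable genes, 48 kept the call with DESeq2 size factors, with either other filter on low counts where tested, and without each library, and 23 did not. With plain totals or DESeq2 size factors, all 484 mean levels of the 242 named genes stayed within 1 SD. Depth allows no level below 0.0764 to 0.098 CPM to be told from 0, and p-values describe spread between the libraries of these 8 mice only.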

Other observations

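The nuclear long noncoding RNAs of the paraspeckle and speckle were among the abundant genes that differed most between libraries. Neat1, which builds paraspeckles, stood at 38.3 CPM in YL512, 40.7 in YL1, 147 in YL7, 198 in YL23, 235.5 in YL24, 321 in YL27, 486 in YL25 and 568 in YL26, a coefficient of 0.726. Malat1 stood at 284 CPM in YL512, 293 in YL1, 378 in YL7, 518 in YL27, 1444 in YL24, 2231 in YL23, 2548 in YL26 and 2846 in YL25, a coefficient of 0.754. Libraries YL512 and YL1 were thus lowest for both, and YL7 came next for both. Reads in no annotated gene were also fewest in YL512 (3.94%) and YL1 (4.5%) and most in YL25 (8.67%). The part of RNA quality or of nuclear RNA in these differences was not tested.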
